A study of Mus musculus with 22 samples.

Results

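The gene set described here is the Cyp1a, Cyp2 and Cyp3a cytochrome P450 family of mouse liver, the enzymes that carry out most oxidation of drugs, steroids and other foreign or fatty compounds. Members were all genes whose symbol starts with Cyp1a, Cyp2 (leaving out Cyp20, Cyp21, Cyp24, Cyp26 and Cyp27) or Cyp3a and that had a probe well above background on both arrays of at least 1 comparison. The array names 42 such genes with 57 probes. Of these, 40 genes with 53 probes passed, out of 26192 genes tested in all. The genes that did not pass were Cyp2ab1 and Cyp2j13. RefSeq lists 86 symbols of these families, 59 of them protein-coding, so part of the family has no probe named here, Cyp2u1 among them. The 40 genes fall into Cyp1a (2 genes), Cyp2a (3), Cyp2b (4), Cyp2c (10), Cyp2d (6), Cyp2j (4), Cyp3a (6) and 1 gene each for Cyp2e, Cyp2f, Cyp2g, Cyp2r and Cyp2s. In RefSeq's annotation 12 of them lie on chromosome 7, 10 on chromosome 19, 6 each on chromosomes 15 and 5, 4 on chromosome 4 and 2 on chromosome 9.

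P450 enzymes sit in the endoplasmic reticulum of hepatocytes, hold a haem group and take electrons from the reductase encoded by Por. Their genes answer to sensors of foreign compounds such as the nuclear receptors CAR (Nr1i3) and PXR (Nr1i2) and the aryl hydrocarbon receptor (Ahr). In rodents many of them also differ between the sexes, because the pituitary releases growth hormone (GH) in pulses in males and more evenly in females, and the liver reads that pattern through the transcription factor STAT5b.

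The study used liver RNA of ICR mice aged 8 weeks on 2-colour Agilent arrays with probes for the whole mouse genome. The sham group of each sex had sham surgery and vehicle, and the sample labels call it untreated. The Hypox group of each sex had its pituitary taken out. Further Hypox mice of each sex received GH once and were killed 30 min or 90 min later. Others received it 2 times with 4 h between the doses and were killed 30 min after the second dose (2 GH). The Hypox and GH-treated groups thus all lack the pituitary and its other hormones. Each of 11 pairs of groups was hybridised on 2 arrays with the dyes swapped, 22 arrays in all. Each array compared pools of 2 to 5 livers, drawn from 6 to 8 mice per group. The Hypox pools held 2 livers on both arrays of GH 90 min females and of 2 GH females. On both arrays of 2 GH males they held 5, from a group of 6 mice. Some mice or pools therefore recur on several arrays, and p-values, which treat the arrays as independent, leave that out. The GH dose is not given in the sources used here.

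All values below are log2 ratios of the first named group over the second, with 1 unit being a 2-fold change, given as the mean of 2 arrays ± SE from 1 limma fit of all 22 arrays with a dye term. A gene is called when its Benjamini-Hochberg adjusted p over all 26192 genes was under 0.05 and both arrays had the same sign. For the differences of an effect between the sexes, the adjusted p alone decided. A dye effect was called for 2870 genes and for 16 of the 40 members, so the 2 arrays of a pair can lie further apart than the SE. Each used member probe was well above background in both channels on all 22 arrays, except that of Cyp2c66, which was so on 21, and none was saturated. Of 10 hepatocyte markers 6 had a probe, and all 6 were above background in both channels of every array. Skeletal muscle RNA differed between pools. The median log2 ratio of 15 muscle genes was 2.29 and 2.82 on the arrays of sham males over sham females, -2.44 and -2.78 in Hypox over sham males, and -2.94 and -2.85 in 2 GH over Hypox females. It was between 2.18 and 2.91 on 1 array only of 2 GH, GH 90 min and GH 30 min over Hypox males and of GH 30 min males over females, and within 0.06 of 0 elsewhere. Mucosa genes of stomach and gut (4 tested) had array medians of 2.56 and 0.11 in Hypox over sham males, 2.82 and -0.33 in Hypox males over females, and -2.93 and -2.45 at 30 min of GH in males; their part in the P450 results was not tested.

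**Figure D1:**
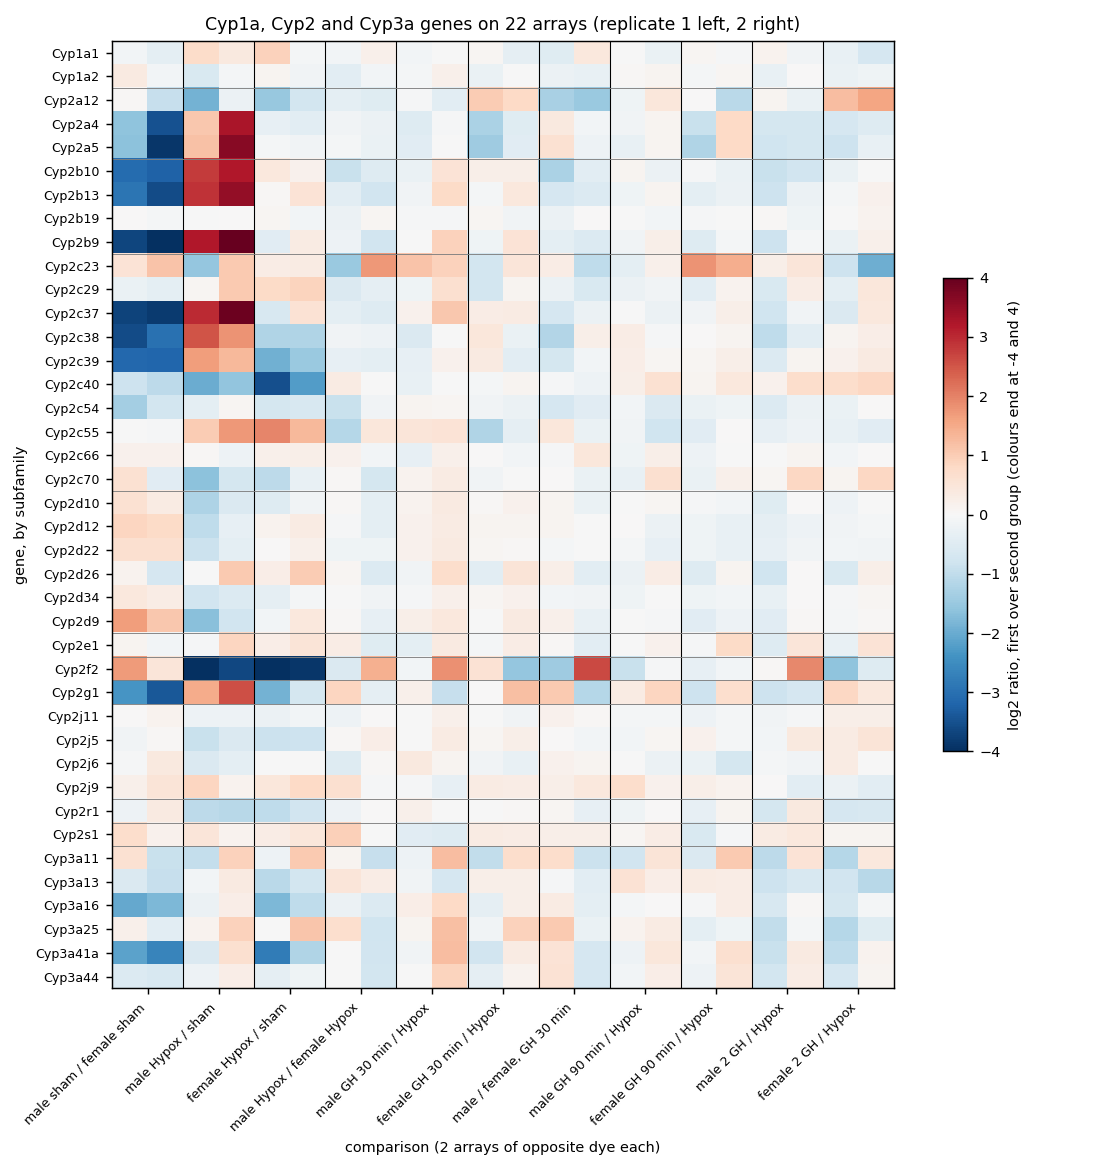
Log2 ratios of the 40 P450 genes (rows, by subfamily) on the 22 arrays (columns, 2 per comparison, replicate 1 at left), with red higher and blue lower in the first named group and colours ending at -4 and 4. The values furthest from 0 lie in the 3 comparisons that involve sham mice, such as -3.68 and -4.43 for Cyp2b9 in sham males over females. In the other columns Cyp2f2, at 2.65 on 1 array of GH 30 min males over females, and Cyp2c23, at -1.95 on 1 array of 2 GH females, are among the stronger.

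Sham mice of both sexes were compared to see how males and females differ when the pituitary is in place. Of the 40 P450 genes, 5 were called higher in males, beside 5.03% of all genes tested, and 15 lower, beside 3.74% (8.77% in either direction). The lower ones were genes of the Cyp2a, Cyp2b, Cyp2c, Cyp2g and Cyp3a subfamilies, and the higher ones were 5 of the 6 Cyp2d genes. The sizes differed: 12 genes were lower by 1 unit or more and 2 higher by as much, Cyp2d9 and, without a call, Cyp2f2. The median of the 40 genes was -0.12, against -0.0055 for all genes. With array-wise median centring in place of loess, 1 gene was higher and 11 lower. A total of 10 of the 20 calls, Cyp2b9, Cyp2b10, Cyp2b13, Cyp2c37, Cyp2c38, Cyp2c39, Cyp2d9, Cyp2g1, Cyp3a16 and Cyp3a41a, held under all 15 alternative settings, and 19 genes were called with the muscle median of each array as a covariate. Of 8 Kupffer cell and macrophage markers 2 were called lower in sham males, with list medians of -0.45 and -0.75 on the 2 arrays. In Hypox over sham males their medians were 0.61 and 0.06 with 0 called, and in females -0.14 and -0.46 with 1 called lower. In the difference of the Hypox effects 1 was called higher; their part in the P450 results was not tested.

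Removal of the pituitary asked which of these sex differences rest on pituitary hormones. In males, 14 P450 genes rose, beside 18.8% of all genes, and 14 fell, beside 18.6% (37.4% in either direction). In females 4 rose, beside 14.6%, and 15 fell, beside 16.5% (31.1% in either direction). The test of the difference between the sexes called 18 genes. Of these 13 had a higher ratio in males, beside 3.22% of all genes, and 5 a lower one, beside 3.52% (6.74% in either direction). Median centring gave 11 higher and 3 lower in males, 1 higher and 5 lower in females, and 8 higher and 0 lower for the difference. Among all genes it called 1897 in females, against 8143 in the main fit, and 147 in the difference, against 1766. These comparisons share sham or Hypox pools with each other, so their values are set side by side below and not treated as separate evidence. In bulk RNA, fewer cells that express a gene and less RNA per cell cannot be told apart.

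**Figure D2:**
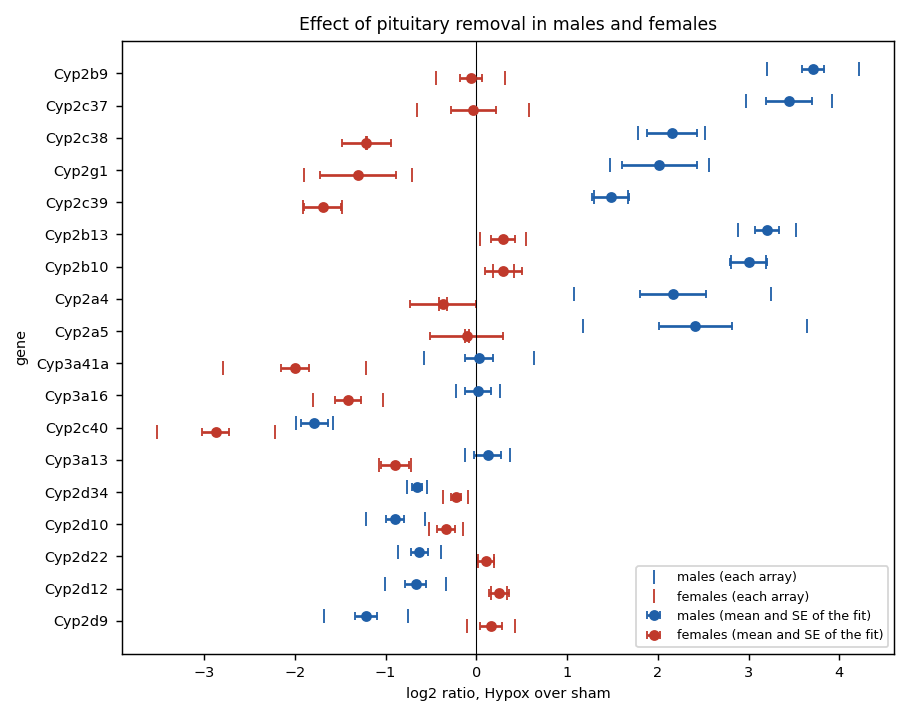
Log2 ratio of Hypox over sham mice (x axis) in males (blue) and females (red) for the 18 P450 genes whose effect differed between the sexes, with dots and bars for the mean and SE of the fit and ticks for each array. Cyp2b9 lies at 3.71 in males and -0.06 in females, and Cyp2d9 at -1.22 and 0.16.

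The Cyp2b genes encode steroid hydroxylases, and Cyp2b10 is the classical target of phenobarbital through CAR. Cyp2b9 was at -3.68 and -4.43 on the 2 arrays of sham males over females, at 3.20 and 4.22 in Hypox over sham males, and at -0.45 and 0.32 in Hypox over sham females. Both male comparisons lay far from 0 on both arrays, while the female arrays fell on either side of it. The fit gave -4.06 ± 0.12 (limma adjusted p = 9.7e-10), 3.71 ± 0.12 (adjusted p = 9.0e-10) and -0.06 ± 0.12 (adjusted p = 0.76), a 16.6-fold lower level in sham males and a 13.1-fold rise in Hypox males. The effect of pituitary removal was 3.77 ± 0.17 larger in males (adjusted p = 2.1e-07).

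Cyp2b13 followed with -2.93 and -3.57 between the sham sexes, 2.88 and 3.52 in Hypox males, and 0.04 and 0.54 in Hypox females. Its fitted values were -3.25 ± 0.13 (limma adjusted p = 7.1e-09), 3.20 ± 0.13 (adjusted p = 3.8e-09) and 0.29 ± 0.13 (adjusted p = 0.11), with a difference of 2.91 ± 0.18 between the sexes (adjusted p = 1.6e-06). A dimmer Cyp2b13 probe gave 0.92 ± 0.22 in Hypox females and was called higher there (adjusted p = 0.0071). Cyp2b10 was at -3.09 and -3.24, then 2.80 and 3.20, then 0.41 and 0.18 on the same arrays. The fit gave the same order, with -3.16 ± 0.20 (adjusted p = 4.9e-07), 3.00 ± 0.20 (adjusted p = 3.2e-07) and 0.30 ± 0.20 (adjusted p = 0.30). The fourth gene, Cyp2b19, known from skin, stayed within -0.10 and 0.07 in every comparison and was not called.

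Cyp2b9 and Cyp2b13 also share nearly all of the promoter window taken for them, shown here because both genes had similar ratios. In RefSeq's GRCm38.p6 annotation, 248 of the 250 bases before the transcript start used for each window are identical. Both windows reach past the first base of the annotated gene, 26173350 for Cyp2b9 and 26061388 for Cyp2b13. The bases before those gene starts were not compared separately. Bases that differ between the genes are in capitals.
Cyp2b9 (chr7:26173159-26173408, plus strand): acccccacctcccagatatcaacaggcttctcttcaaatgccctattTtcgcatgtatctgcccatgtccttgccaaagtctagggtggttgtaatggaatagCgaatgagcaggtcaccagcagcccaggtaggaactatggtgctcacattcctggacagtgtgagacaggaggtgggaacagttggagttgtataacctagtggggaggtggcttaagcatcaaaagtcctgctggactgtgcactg
Cyp2b13 (chr7:26061245-26061494, plus strand): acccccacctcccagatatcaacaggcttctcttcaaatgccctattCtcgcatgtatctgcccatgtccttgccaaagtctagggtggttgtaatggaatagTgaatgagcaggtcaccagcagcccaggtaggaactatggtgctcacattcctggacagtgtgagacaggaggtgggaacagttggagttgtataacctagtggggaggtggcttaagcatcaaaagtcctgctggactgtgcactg
Aligned in the same way, the Cyp2b10 promoter shares 179 of 260 aligned positions with that of Cyp2b9. Transcript and probe sequences were not compared here, and cross-hybridisation between Cyp2b genes, and between close members of the other subfamilies, was not tested.

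Cyp2a4, a steroid hydroxylase, and Cyp2a5, the coumarin hydroxylase, gave like values. Cyp2a4 was at -1.60 and -3.50 between the sham sexes, 1.08 and 3.25 in Hypox males, and -0.32 and -0.41 in Hypox females. Cyp2a5 was at -1.63 and -3.88, 1.18 and 3.65, and -0.08 and -0.13. Both genes went the same way on both arrays of each sham comparison, but the 2 arrays of Hypox males, and those of the sham sexes, lay far apart. The fit gave -2.55 ± 0.37 (limma adjusted p = 6.2e-04) and 2.16 ± 0.37 (adjusted p = 5.2e-04) for Cyp2a4, and -2.76 ± 0.40 (adjusted p = 7.2e-04) and 2.41 ± 0.40 (adjusted p = 4.8e-04) for Cyp2a5. In Hypox females they were -0.37 and -0.11, neither called, and the differences between the sexes were 2.53 ± 0.52 (adjusted p = 0.013) and 2.52 ± 0.57 (adjusted p = 0.021). Without replicate 2, the sham call was lost for Cyp2a4 and for Cyp2a5, and so was the call of the difference between the sexes, at 1.40 and 1.26. The other Cyp2a4 probe gave -4.11 ± 0.35, 3.104 ± 0.35 and, in Hypox females, -1.03 ± 0.35, which was called (adjusted p = 0.041).

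The Cyp2a4 and Cyp2a5 promoters are shown for the same reason as those above. They match at 245 of 251 aligned positions, with 4 mismatches and 2 unpaired end bases, all in capitals.
Cyp2a4 (chr7:26306942-26307191, plus strand): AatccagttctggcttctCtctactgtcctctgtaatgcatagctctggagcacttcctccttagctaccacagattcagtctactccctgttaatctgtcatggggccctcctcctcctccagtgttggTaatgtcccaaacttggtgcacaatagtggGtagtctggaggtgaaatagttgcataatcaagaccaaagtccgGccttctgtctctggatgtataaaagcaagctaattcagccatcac
Cyp2a5 (chr7:26835089-26835338, plus strand): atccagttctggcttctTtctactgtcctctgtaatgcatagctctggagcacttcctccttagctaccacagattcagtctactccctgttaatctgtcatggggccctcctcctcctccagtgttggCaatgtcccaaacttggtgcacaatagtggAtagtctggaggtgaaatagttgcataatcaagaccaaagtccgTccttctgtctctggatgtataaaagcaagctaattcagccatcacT
The third member, Cyp2a12, another steroid hydroxylase, did not follow them. It was at 0.06 and -0.91 between the sham sexes (-0.43 ± 0.34, limma adjusted p = 0.55). It fell in both sexes after pituitary removal, to -1.88 and -0.22 in males (-1.05 ± 0.34, adjusted p = 0.028) and -1.53 and -0.74 in females (-1.13 ± 0.34, adjusted p = 0.024). The male call was lost without replicate 1, where the ratio was -0.27, and the female one without either replicate.

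The Cyp2c subfamily oxidises arachidonic acid, retinoids and many drugs, and its 10 genes split into several patterns. Cyp2c37 was at -3.70 and -3.82 between the sham sexes, 2.97 and 3.92 in Hypox males, and -0.65 and 0.58 in Hypox females. The fit gave -3.76 ± 0.25 (limma adjusted p = 6.8e-07), 3.45 ± 0.25 (adjusted p = 5.8e-07) and -0.03 ± 0.25 (adjusted p = 0.94), like the Cyp2b genes. A dimmer Cyp2c37 probe was called the same way with smaller values, -1.58 ± 0.19 and 1.06 ± 0.19.

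Cyp2c38 and Cyp2c39, the latter known to hydroxylate retinoic acid, moved in opposite directions in the 2 sexes. Cyp2c38 was at -3.57 and -2.99 between the sham sexes, rose to 2.53 and 1.79 in Hypox males and fell to -1.21 and -1.22 in Hypox females. Cyp2c39 was at -3.13 and -3.19, then 1.67 and 1.30, then -1.91 and -1.48. On each of these arrays the sign was the same as on its partner. Fitted changes were 2.16 ± 0.27 (limma adjusted p = 5.7e-05) and -1.21 ± 0.27 (adjusted p = 0.0049) for Cyp2c38, and 1.48 ± 0.20 (adjusted p = 1.1e-04) and -1.70 ± 0.20 (adjusted p = 7.1e-05) for Cyp2c39. The differences between males and females were 3.37 ± 0.39 (adjusted p = 2.5e-04) and 3.18 ± 0.29 (adjusted p = 3.4e-05). Cyp2c38 in females was not called without replicate 1 or 2, nor was its other probe (-0.77). Cyp2g1, best known from olfactory tissue, did the same with less even arrays. It was at -2.36 and -3.38, then 1.47 and 2.56, then -1.90 and -0.71, fitted as -2.87 ± 0.41 (adjusted p = 6.5e-04), 2.02 ± 0.41 (adjusted p = 0.0020) and -1.30 ± 0.41 (adjusted p = 0.030). Leaving out replicate 2 ended the male call of Cyp2g1, leaving out either ended the female one, and either ended the call of its difference of 3.32 ± 0.59.

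Cyp2c40, an arachidonic acid hydroxylase, fell in both sexes. Between the sham sexes it was at -0.82 and -1.05 (-0.94 ± 0.15, limma adjusted p = 0.0014). Pituitary removal took it to -1.99 and -1.58 in males (-1.79 ± 0.15, adjusted p = 1.9e-06) and to -3.52 and -2.22 in females (-2.87 ± 0.15, adjusted p = 7.5e-08), a 7.32-fold fall. The fall was smaller in males by 1.08 ± 0.21 (adjusted p = 0.0096), by 0.63 without replicate 1 and by 1.54 without replicate 2, and the call was lost with median centring, no dye term, slide as a block or arrays alone. Hypox males and females were 0.33 and -0.02 apart on the 2 arrays. Without replicate 1 the sham difference was not called. Cyp2c54 was lower in sham males (-1.04 ± 0.18), fell in Hypox females (-0.67 ± 0.18) and was at -0.15 in Hypox males, not called. Its effect did not differ between the sexes by call (0.52 ± 0.25, adjusted p = 0.27), its sham call was lost without replicate 1 and its female one without either replicate.

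Other Cyp2c genes showed no called sex difference in sham mice. Cyp2c70, which makes muricholic acids from bile acids, fell in Hypox males (-1.17 ± 0.15, limma adjusted p = 4.9e-05). It also fell in Hypox females (-0.66 ± 0.15, adjusted p = 0.0045), a call lost without either replicate. Cyp2c55 was at -0.01 and -0.05 between the sham sexes, and rose to 1.01 and 1.73 in males (1.37 ± 0.33, adjusted p = 0.0061) and to 1.97 and 1.28 in females (1.63 ± 0.33, adjusted p = 0.0027). Cyp2c29 rose by 0.56 ± 0.19 and 0.83 ± 0.19. The calls of Cyp2c29 in males and Cyp2c55 in males were lost without replicate 2, those of both in females without replicate 1. Cyp2c23 and Cyp2c66 were not called anywhere. Cyp2c23 spanned -1.39 to 1.63 over the comparisons, with arrays as far apart as -1.48 and 1.73 within a pair, and Cyp2c66 spanned -0.12 to 0.22.

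The Cyp2d subfamily went the other way from the genes above. Cyp2d9, a testosterone hydroxylase long known as male-biased, was at 1.66 and 1.08 in sham males over females and at -1.68 and -0.76 in Hypox over sham males. In females the ratio stayed near 0. The fit gave 1.37 ± 0.12 (limma adjusted p = 9.6e-06) between the sham sexes, -1.22 ± 0.12 (adjusted p = 8.1e-06) in Hypox males and 0.16 in Hypox females, which was not called. The effect differed between the sexes by -1.38 ± 0.17 (adjusted p = 4.4e-04). Cyp2d12 (0.80 ± 0.11 between the sham sexes, -0.67 ± 0.11 in Hypox males) and Cyp2d22 (0.64 ± 0.09 and -0.63 ± 0.09) had the same order with smaller values. In Hypox females they stood at 0.25 and 0.10, neither called. Cyp2d10 (0.47 ± 0.10, then -0.89 ± 0.10) and Cyp2d34 (0.36 ± 0.05, then -0.66 ± 0.05) also fell in Hypox females, by 0.34 and 0.23 on the log2 scale, calls lost without replicate 1 for both, without replicate 2 for Cyp2d10, and for both with median centring, no dye term or arrays alone. The sixth gene, Cyp2d26, did not differ by call between the sham sexes and rose in Hypox females (0.63 ± 0.08, adjusted p = 1.2e-04). That call was lost with median centring, no dye term or arrays alone. In Hypox males Cyp2d26 was at -0.02 and 1.06 on the arrays, not called. Under median centring the sham call was lost for Cyp2d10, Cyp2d12, Cyp2d22 and Cyp2d34. So were the calls of the fall in Hypox males and of the difference, for these and for Cyp2d9. The sham call of Cyp2d10 and the differences of Cyp2d10 and Cyp2d34 were also lost without either replicate, and without replicate 1 so were the differences of Cyp2d12 and Cyp2d22 and the male fall of Cyp2d12.

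In the Cyp3a subfamily, whose best known mouse members metabolise many drugs and steroids, 4 of 6 genes were lower in sham males. Of these, 3 fell in Hypox females (Cyp3a41a, Cyp3a16 and Cyp3a13) and 0 of the 4 were called in Hypox males. Cyp3a41a, a female-predominant gene, was at -2.16 and -2.65 between the sham sexes, -2.79 and -1.21 in Hypox females, and -0.58 and 0.64 in Hypox males. Cyp3a16, known from fetal and young liver, was at -2.04 and -1.79, then -1.80 and -1.03, then -0.23 and 0.26. The male arrays of both genes lay on either side of 0. The fit gave -2.40 ± 0.15 (limma adjusted p = 4.7e-07), -2.001 ± 0.15 (adjusted p = 2.1e-06) and 0.03 ± 0.15 for Cyp3a41a, and -1.92 ± 0.14 (adjusted p = 1.9e-06), -1.41 ± 0.14 (adjusted p = 1.8e-05) and 0.01 ± 0.14 for Cyp3a16. The sexes differed in the effect by 2.03 ± 0.22 (adjusted p = 1.4e-04) and 1.43 ± 0.20 (adjusted p = 0.0012), the latter not called without replicate 1. Cyp3a13 was lower by -0.75 ± 0.15 in sham males and fell in Hypox females (-0.90 ± 0.15), and was at 0.12 in Hypox males, not called, with a difference of 1.02 ± 0.21. Its sham call was lost without replicate 2, and its difference without either replicate.

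Cyp3a44, known as female-specific, gave 2 quite different readings. Its brighter probe, used in the counts, had group mean log2 intensities of 15.54 to 16.17 and was not marked as saturated. It was at -0.54 and -0.65 between the sham sexes (-0.59 ± 0.16, limma adjusted p = 0.040, not called without replicate 1) and at -0.27 in Hypox females, not called. Its dimmer probe was at -6.29 and -5.80 between the sham sexes and -6.33 and -6.36 in Hypox females, but -0.90 and 0.34 in Hypox males. The fit of that probe gave -6.05 ± 0.36 (adjusted p = 2.6e-07) and -6.35 ± 0.36 (adjusted p = 1.8e-07), the widest ratios seen for any probe of these genes, and the gap between both probes reached 6.08. Of 13 genes with a pair of passing probes, 5 had a gap above 0.5 in some comparison (Cyp3a44, Cyp2c37, Cyp2a4, Cyp2b13 and Cyp2c38), while the other 8 stayed within 0.487. Calls differed in 9 of 143 probe pairs, and in 0 pairs did a called probe have the opposite sign to its partner.

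**Figure D3:**
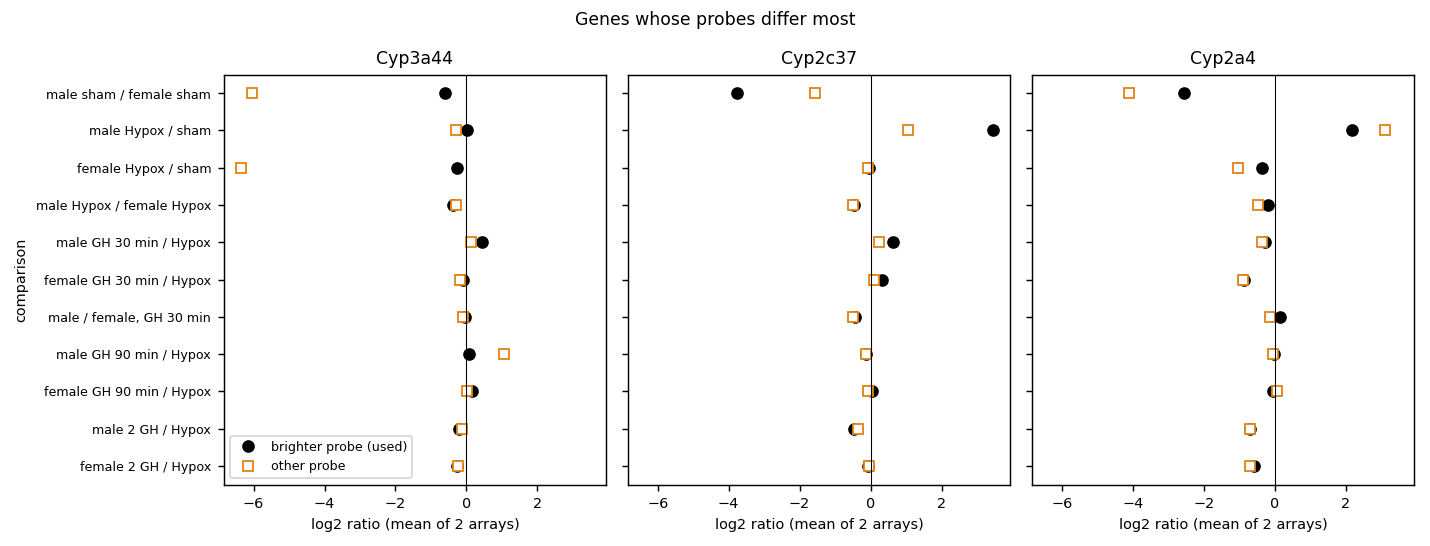
Log2 ratios (x axis, mean of 2 arrays) of both probes of Cyp3a44, Cyp2c37 and Cyp2a4 in the 11 comparisons (y axis), with filled circles for the brighter probe and open squares for the other. The Cyp3a44 probes lie at -0.59 and -6.05 in sham males over females and at -0.27 and -6.35 in Hypox over sham females.

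The Cyp3a41a and Cyp3a44 promoters are shown because the windows are alike while the genes' probes read differently: -2.40 for Cyp3a41a between the sham sexes, and -0.59 or -6.05 for Cyp3a44 by probe. They match at 236 of 250 bases, with 14 mismatches in capitals. The Cyp3a44 window overlaps the annotated gene, which ends at 145805891.
Cyp3a41a (chr5:145720137-145720386, minus strand): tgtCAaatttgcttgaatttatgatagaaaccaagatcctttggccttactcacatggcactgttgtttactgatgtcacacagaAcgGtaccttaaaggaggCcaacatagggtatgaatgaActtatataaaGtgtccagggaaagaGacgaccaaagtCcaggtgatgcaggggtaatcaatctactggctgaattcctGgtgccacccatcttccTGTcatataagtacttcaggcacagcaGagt
Cyp3a44 (chr5:145805875-145806124, minus strand): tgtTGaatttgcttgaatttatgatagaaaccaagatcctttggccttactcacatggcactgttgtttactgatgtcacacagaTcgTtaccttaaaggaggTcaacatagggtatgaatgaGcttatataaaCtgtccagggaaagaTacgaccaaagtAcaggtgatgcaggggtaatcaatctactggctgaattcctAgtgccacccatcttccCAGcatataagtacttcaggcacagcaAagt
The letters CAAAGTCCA, a core bound by the liver nuclear receptor HNF4α, occur in the Cyp3a41a window and not in that of Cyp3a44. Searched on both strands of 300 bases around the start (250 before, 50 after), this core was found for 5 of 36 windows of 34 member genes with a RefSeq promoter, those of Cyp2c40, Cyp2c70, Cyp3a11, Cyp3a16 and Cyp3a41a, and in 0.475% of 32851 windows of all genes. The STAT palindrome TTCNNNGAA was in 1 of the 36 windows, that of Cyp2j11, against 8.30% of all windows. The CUX and ONECUT core ATCGAT was in 0 of 36, against 0.925%, and TATAAA in 21 of 36, against 13.6%. Close relatives share these windows, so they are not independent, and a match is only a match of letters.

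Cyp3a11, the main drug-metabolising Cyp3a of adult mouse liver, was never called. Its dye effect was 0.75 (limma adjusted p = 6.7e-08), and its arrays of one pair often lay on either side of 0, as at -0.95 and 0.93 in Hypox males and -0.19 and 1.05 in Hypox females. Cyp3a25 rose in Hypox males (0.52 ± 0.19, limma adjusted p = 0.044), but its other probe (0.16) was not called, nor was the gene without either replicate.

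Among the remaining members, Cyp2f2 had the largest falls. This enzyme, known for activating naphthalene in the lung and present in liver, was at -5.49 and -3.64 in Hypox males and at -4.24 and -3.89 in Hypox females. All 4 arrays were far below 0. The fit gave -4.57 ± 0.89 (limma adjusted p = 0.0014) and -4.06 ± 0.89 (adjusted p = 0.0040), falls of 23.7-fold and 16.7-fold, and no called difference between the sexes (-0.51 ± 1.25). Its SE was the largest of all members, with 1.70 and 0.47 between the sham sexes and -1.42 and 2.65 in males over females at 30 min of GH. Without replicate 1 neither fall was called, and without replicate 2 the female one was not.

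Cyp2r1, which hydroxylates vitamin D, fell in males (-1.07 ± 0.20, limma adjusted p = 9.9e-04) and females (-0.90 ± 0.20, adjusted p = 0.0044). Cyp2j5, an arachidonic acid epoxygenase, fell by 0.73 and 0.85 on the log2 scale, and Cyp2j9 rose by 0.49 and 0.63. Cyp2j6 (-0.48) and Cyp2j11 (-0.20) fell in males. In Hypox females Cyp2j6 was at -0.01 and -0.008 on the arrays and Cyp2j11 was at -0.17, neither called. The calls of Cyp2j9 and Cyp2j6 in males were lost without replicate 1, of Cyp2j9 in females without replicate 2, and of Cyp2r1 in females and Cyp2j11 without either. Of the Cyp1a genes, which answer to the aryl hydrocarbon receptor, Cyp1a1 rose in Hypox males (0.56 ± 0.17, adjusted p = 0.022) and Cyp1a2, the enzyme that clears caffeine, fell slightly (-0.34 ± 0.12, adjusted p = 0.046). The Cyp1a1 call was lost without either replicate and that of Cyp1a2 without replicate 1. In Hypox females Cyp1a1 was at 0.93 and -0.06 on the arrays and Cyp1a2 was at -0.02, neither called. Cyp2e1, the ethanol-oxidising P450, was at -0.06 and 0.86 in Hypox males and 0.27 and 0.52 in Hypox females, with fitted values of 0.40 and 0.39 and no call. Cyp2s1 spanned -0.48 to 0.48 over the 11 comparisons, with no call.

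Of the calls in Hypox males, 8 of 28 held under all 15 alternative settings, those of Cyp2b9, Cyp2b10, Cyp2b13, Cyp2c37, Cyp2c38, Cyp2c39, Cyp2c40 and Cyp2r1. In Hypox females 4 of 19 did so (Cyp2c39, Cyp2c40, Cyp3a16 and Cyp3a41a), and of the differences 5 of 18 (Cyp2b9, Cyp2b10, Cyp2b13, Cyp2c38 and Cyp2c39). With the muscle median of each array as a covariate, 21 genes were called in Hypox males, 19 in Hypox females and 16 in the difference. Of all genes, 8776 were then called in Hypox females and 1727 in the difference, against 8143 and 1766 in the main fit. With slide as a block, 24, 15 and 10 members were called. The differences of Cyp2a4, Cyp2a5, Cyp2c40, Cyp2d10, Cyp2d12, Cyp2d22, Cyp2d34 and Cyp3a13 were not. Slide as a block called 6238 of all genes in Hypox females and 532 in the difference. In Hypox males 6 of 8 lymphocyte markers were also called higher, with a list median of 0.60, and in Hypox females 4 of 8, with a median of 0.22; their part in the P450 results was not tested.

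Hypox males were compared with Hypox females to ask which differences remain without the pituitary. Here 1 member was called, Cyp2b13, lower in males at -0.42 and -0.76 on the 2 arrays (-0.59 ± 0.13, limma adjusted p = 0.042), beside 0.764% of all genes called lower (1.63% in either direction). The call was lost when either array was left out or slide was a block, and its other probe, at -0.79, was not called. Cyp2b9 was at -0.20 and -0.78 (-0.49 ± 0.12, adjusted p = 0.069) and Cyp2b10 at -0.89 and -0.50 (-0.70 ± 0.20, adjusted p = 0.11). The arrays of these 3 genes were all below 0 and none below -1 unit, set beside -4.43 to -2.93 between the sham sexes. Of the 40 members, 15 had an unadjusted p under 0.05 in Hypox males over females, and 30 had a negative ratio. The share of all genes at that unadjusted threshold was not counted, here or for the like counts below. Their median was -0.17, against 0.0015 for all genes. More members were called with the loop model, as given at the end. That model also called more of all genes in other comparisons. Small differences that remain may be missed here. In GH-treated males over GH-treated females at 30 min, 0 members were called, beside 0.504% of all genes, and 7 had an unadjusted p under 0.05. Cyp2b10 was at -1.27 and -0.41 there, and Cyp2a12 at -1.31 and -1.47 (-1.39 ± 0.34, adjusted p = 0.11).

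The GH injections asked how fast the liver answers when the hormone returns. At 30 min, 0 members were called in males (2.5% of all genes) and 0 in females (0.0191%). An unadjusted p under 0.05 was found for 16 and 5. The dimmer Cyp3a25 probe, not used in the counts, was called higher in males then (0.76), beside 0.67 for the used probe. At 90 min 0 were called in males (4.98% of all genes, 3 at an unadjusted p under 0.05), and 1 with slide as a block. In females 1 was called lower, beside 0.821% (3.17% in either direction). That gene was Cyp2j6, at -0.26 and -0.71 (-0.48 ± 0.11, limma adjusted p = 0.034). Without either array, or with slide as a block, it was not called, and with median centring the sign turned (0.17, adjusted p = 0.51). Of 6 genes listed for GH response, 1 was called at 30 min in each sex and 4 at 90 min, all higher. The gene called at 30 min was Socs2, a feedback inhibitor of GH signalling, which rose by 2.22 in males and 2.965 in females. Cish, another, was at 2.19 and 2.88 then, not called, and rose by 4.17 in both sexes at 90 min.

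**Figure D4:**
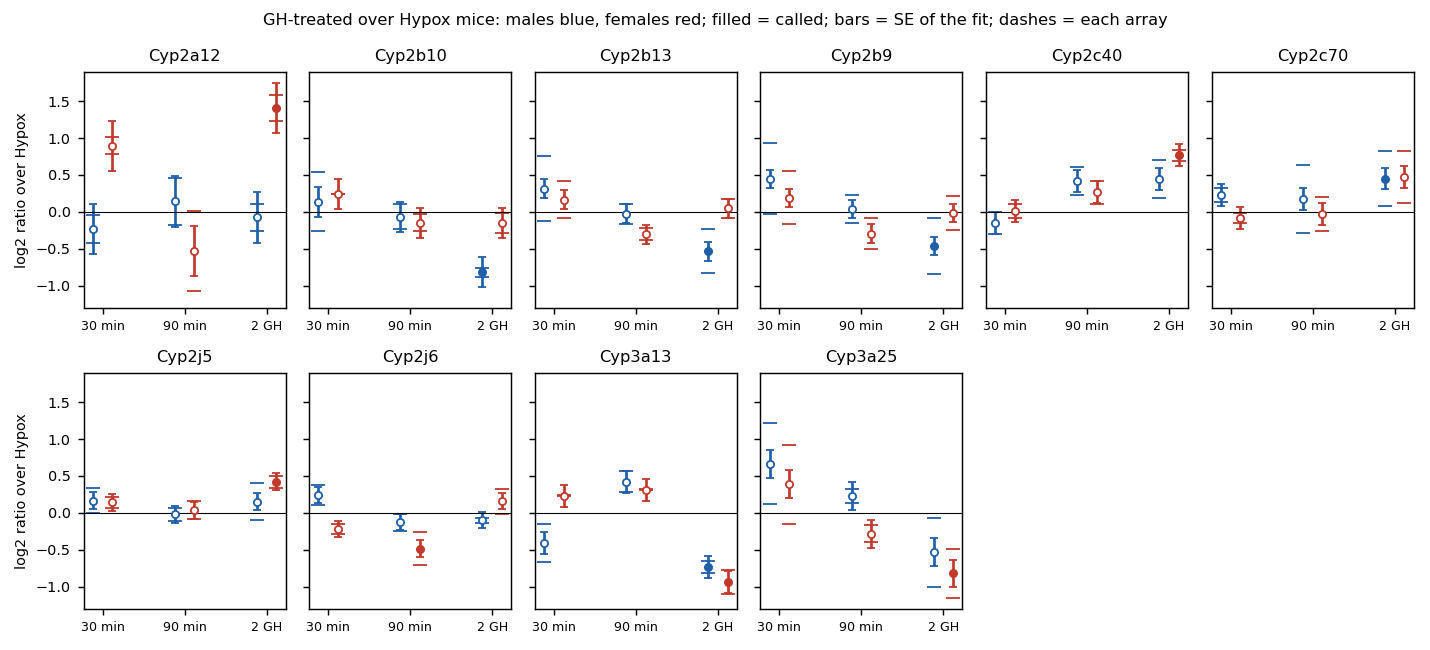
Log2 ratio of GH-treated over Hypox mice (y axis) at 30 min, 90 min and after 2 injections (x axis) for the 10 P450 genes called in any of these comparisons, males in blue and females in red, with filled dots for calls, bars for the SE and dashes for each array. Filled dots lie mostly at 2 GH, such as Cyp3a13 at -0.73 in males and -0.94 in females.

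After 2 injections, 1 member was called higher in males, beside 10.6% of all genes, and 4 lower, beside 8.7% (19.3% in either direction). In females 3 were called higher, beside 4.4%, and 2 lower, beside 4.03% (8.43% in either direction). In males 3 of the 4 Cyp2b genes fell, all but Cyp2b19: Cyp2b10 was at -0.88 and -0.75 (-0.82 ± 0.20, limma adjusted p = 0.013), Cyp2b13 at -0.83 and -0.23 (-0.53 ± 0.13, adjusted p = 0.012) and Cyp2b9 at -0.84 and -0.09 (-0.46 ± 0.12, adjusted p = 0.018). Cyp2b9's other probe was at -0.35 and not called. In females these 3 genes were at -0.15, 0.05 and -0.02, none called, but the test of the difference between the sexes called 0 members (1.97% of all genes; 7 at an unadjusted p under 0.05). Cyp3a13 fell in both sexes, to -0.81 and -0.65 in males (-0.73 ± 0.15, adjusted p = 0.0042) and -0.78 and -1.10 in females (-0.94 ± 0.15, adjusted p = 0.0038). Cyp2c70 rose in males (0.45 ± 0.15, adjusted p = 0.048) and was at 0.12 and 0.83 on the female arrays, not called.

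In females Cyp2c40 rose to 0.69 and 0.84 (0.77 ± 0.15, limma adjusted p = 0.010), set beside -2.87 in the comparison of Hypox with sham females, which used the same group of Hypox mice. In males it was at 0.19 and 0.70 (0.44 ± 0.15, adjusted p = 0.056). Cyp2a12 rose in females to 1.24 and 1.58 (1.41 ± 0.34, adjusted p = 0.026) and was at -0.07 in males, a difference of -1.48 ± 0.48 that was not called (adjusted p = 0.12). Cyp2j5 rose (0.42 ± 0.11) and Cyp3a25 fell (-0.82 ± 0.19) in females. In males these 2 genes were at 0.15 and -0.53, neither called. None of the 10 calls after 2 injections held under all 15 settings. Without replicate 1 the counts were 0 in males and 1 in females, and without replicate 2 they were 2 and 0. With the muscle median as a covariate 0 female calls were left and 4 male ones, and median centring left 0 in both sexes. Among all genes median centring called 454 in males and 81 in females, against 5049 and 2208 in the main fit. The muscle covariate called 4524 of all genes in males and 1013 in females. Slide as a block left 1 female call, of Cyp3a13. Of 7 pancreatic acinar genes 6 were called higher in 2 GH over Hypox males (medians of 0.48 and 3.65 on the 2 arrays), and 13 of 15 muscle genes were called lower in 2 GH over Hypox females; their part in the P450 results was not tested.

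Most other members described above by array had no call with GH. Over the 12 arrays of GH-treated over Hypox mice, Cyp2a4 ranged from -1.26 to 0.80 (median -0.51, 10 arrays below 0) and Cyp2a5 from -1.42 to 0.79 (median -0.45, 10 below 0). Neither was called. Cyp2c37 ranged from -0.79 to 1.09 around a median of 0.07, Cyp2c38 from -1.01 to 0.47, and Cyp2c39 from -0.53 to 0.35. Cyp2c55 ranged from -1.20 to 0.55 with 9 arrays below 0. Cyp2f2 spanned -1.60 to 1.92 and Cyp2g1 -0.93 to 1.21. Cyp3a41a spanned -1.02 to 1.24 and Cyp3a16 -0.71 to 0.78, each with 6 arrays on either side of 0. The test of the difference between the sexes called 0 members at 30 min and 0 at 90 min (0.00764% of all genes at each time), with 9 and 2 at an unadjusted p under 0.05.

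P450 enzymes depend on an electron donor and on haem. Por, the reductase, was at -1.32 and -1.16 between the sham sexes (-1.24 ± 0.10, limma adjusted p = 2.9e-06). It rose in Hypox males to 0.44 and 0.63 (0.54 ± 0.10, adjusted p = 7.8e-04) and fell in Hypox females to -0.97 and -0.78 (-0.87 ± 0.10, adjusted p = 3.5e-05), a difference of 1.41 ± 0.14 (adjusted p = 5.4e-05). At 90 min of GH it rose in males (0.43 ± 0.10, adjusted p = 0.021). Alas1, which sets the rate of haem synthesis, fell to -3.42 and -2.05 in Hypox males (-2.74 ± 0.42, adjusted p = 2.3e-04) and to -3.39 and -2.59 in Hypox females (-2.99 ± 0.42, adjusted p = 2.0e-04). Of 17 genes for partners and haem supply, 3 rose and 9 fell in Hypox males, beside 18.8% and 18.6% of all genes, with a median of -0.24 against 0.0060 for all genes. In Hypox females 1 rose and 7 fell, beside 14.6% and 16.5%, with a median of -0.08 against -0.0035. Among them the haem-binding Pgrmc1 (-0.72 and -0.65) and the outer mitochondrial cytochrome Cyb5b (-0.88 and -0.39) fell in both sexes.

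Of 21 regulators of these P450s, 2 were higher and 4 lower in sham males, beside 5.03% and 3.74% of all genes. CAR was at -0.75 and -0.94 between the sham sexes (-0.85 ± 0.23, limma adjusted p = 0.035), PXR at -0.46 ± 0.11 (adjusted p = 0.020) and Ahr at -0.57 ± 0.15 (adjusted p = 0.036). The repressor Bcl6 was higher in sham males (1.89) and the factor Cux2 lower (-1.97). In Hypox males 4 regulators rose and 9 fell, beside 18.8% and 18.6% of all genes. CAR rose to 0.30 and 1.19 (0.75 ± 0.23, adjusted p = 0.020), and PXR rose by 0.36 ± 0.11 (adjusted p = 0.021). In Hypox females 2 rose and 8 fell, beside 14.6% and 16.5%, while CAR (-0.0027) and PXR (-0.24) were not called. The effect on PXR differed between the sexes (0.60 ± 0.16, adjusted p = 0.039). After 2 injections CAR fell in males to -1.37 and -0.76 (-1.06 ± 0.23, adjusted p = 0.0054), PXR fell at 90 min in both sexes (-0.46 and -0.49), and Bcl6 fell after 2 injections in both (-1.76 and -1.45). The regulators Ppara, Cebpb and Onecut1 fell in Hypox mice of both sexes, by 1.30, 1.51 and 1.61 on the log2 scale in males and by 1.68, 1.32 and 1.51 in females.

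**Figure D5:**
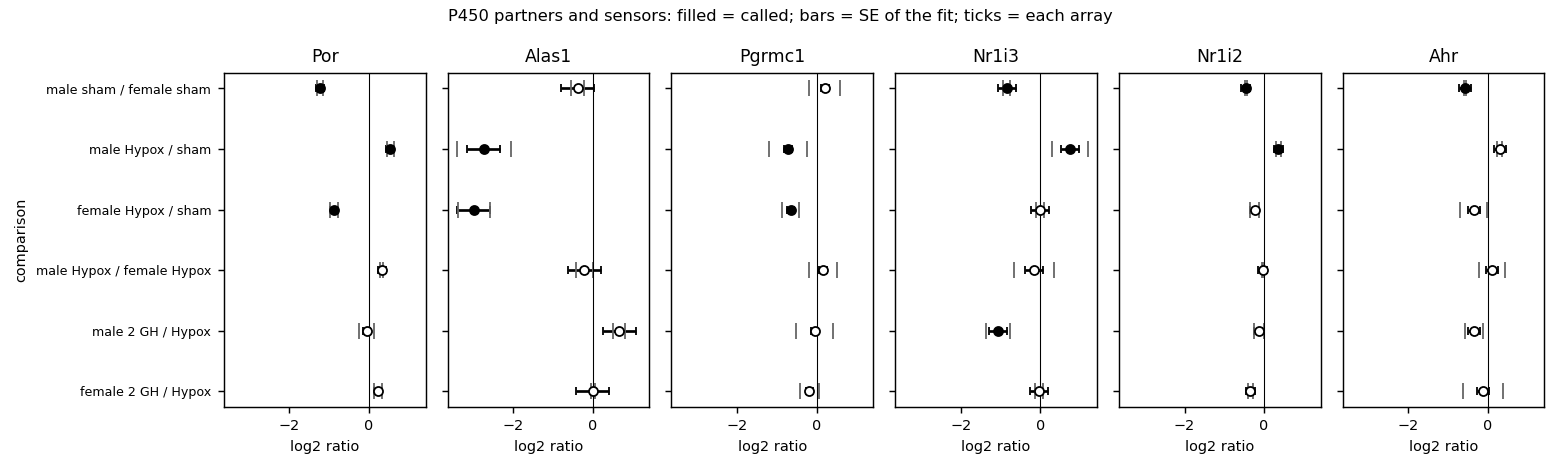
Log2 ratios (x axis) of Por, Alas1, Pgrmc1, CAR (Nr1i3), PXR (Nr1i2) and Ahr in 6 comparisons (y axis), with filled dots for calls, bars for the SE of the fit and ticks for each array. Por lies at 0.54 in Hypox males and -0.87 in Hypox females, while Alas1 lies at -2.74 and -2.99.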

How the data were processed

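Liver RNA of 10 groups of mice was compared on 22 Agilent 2-colour arrays, 2 per comparison with swapped dyes. Per the file headers, the scanner files hold Feature Extraction output: the mean and background intensity of each spot in both channels, as deposited by the authors. The scanner's own ratio column, deposited by the authors, is log10 of red over green per the file headers. The authors' deposited value table was found to hold that ratio as log2, first named group over second, and 16 of its 22 columns matched the scanner file labelled as the other replicate. Its column medians were -0.02 to 0.00. The genome build was not given in the sources used here.

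Intensities were background-corrected (normexp, offset 50) and normalised by loess on each array. Control spots had weight 0 there, and spots marked as outliers were left out. Spots of a probe were averaged, and of several probes of a gene the brightest was used. Probes were named through RefSeq accessions or gene names; 22082 of 41174 probes had a symbol. Log2 ratios, computed here from the deposited intensities, were oriented by the dyes per the labels and fitted with limma 3.58.1 in R 4.3.3, with 11 comparisons and a dye term (10 residual degrees of freedom). Differences between the sexes were contrasts of that fit. The number of arrays limits precision. The fit was also run on simulated arrays with independent noise, which cannot check p-values where arrays share mice or pools.

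The members, the 3 marker genes (Cyp2b9, Cyp2b13 and Cyp2c40), the lists and the alternatives were chosen with earlier results of these data known. By the same rule, array values are given for those genes and for the 12 other members with the largest called ratio, other called members may be named, and up to 4 called genes per list and comparison are, plus Por, Ahr, Nr1i2 and Nr1i3. A planned comparison of protein sequences was not made. Promoter windows are RefSeq's (GRCm38.p6), aligned in pairs with Biopython 1.88. The alternatives were median centring, the deposited value table, other probe summaries and filters, no dye term, replicate number, slide or scan day as a block, a loop model, each comparison's arrays alone, leaving out each replicate and, added after seeing the data, the muscle list's median on each array as a covariate. Where the series text names Hypox males as the partner of the 2 GH females, the sample labels name Hypox females, and the labels were followed.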

Additional observations from a re-analysis of the deposited data

Results flagged for a closer look

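The effect of pituitary removal differed between males and females for 18 of the 40 P450 genes by the limma contrast of males minus females. Among all genes that contrast called 6.74%. Only 5 of the 18 calls held under all 15 alternatives, those of Cyp2b9, Cyp2b10, Cyp2b13, Cyp2c38 and Cyp2c39. The difference was 3.77 for Cyp2b9, 3.48 for Cyp2c37, 3.37 for Cyp2c38, 3.32 for Cyp2g1, 3.18 for Cyp2c39, 2.91 for Cyp2b13 and 2.70 for Cyp2b10. It was 2.53 for Cyp2a4, 2.52 for Cyp2a5, 2.03 for Cyp3a41a, 1.43 for Cyp3a16, 1.08 for Cyp2c40 and 1.02 for Cyp3a13. On the other side it was -1.38 for Cyp2d9, -0.92 for Cyp2d12, -0.74 for Cyp2d22, -0.56 for Cyp2d10 and -0.43 for Cyp2d34. Each was picked out because the test of the difference itself passed an adjusted p of 0.05. The same sham groups enter this difference and the direct comparison of the sham sexes.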

How the results depend on the processing

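Of 97 calls, 27 held under all 15 alternatives. Fitting every probe, a stricter filter, scan day as a random block and the loop model each kept all 97. The replicate number as a block kept 95, with 4 members called in 2 GH over Hypox males and 27 in Hypox over sham males; the block changed no other call. Over 55 pairs of comparisons the deviations of same-numbered arrays correlated at -0.36 to 0.87 (20 above 0.1). Comparisons with no group in common are among these pairs, so the range cannot decide whether same-numbered arrays share pools. The main fit did not pair arrays by number, and its p-values leave any such sharing out. In 8 comparisons the number does mark slides shared with others, and there r was -0.35 to 0.35 over 12 pairs (4 above 0.1). The mean of all probes and no filter kept 93 each, the deposited values 87, the muscle covariate 80, slide as a block and no dye term 71 each, each comparison's arrays alone 56, and median centring 40. The causes were not tested. Median centring turned the sign of 1 call, Cyp2j6 in females at 90 min of GH (0.17). It left 12 calls between the sham sexes, 14 in Hypox males, 6 in Hypox females, 8 in the difference, and 0 in 2 GH males, 2 GH females and Hypox males over females. Among all genes it called 1897 in Hypox females, against 8143 in the main fit, and 147 in the difference, against 1766. In 2 GH males it called 454 of all genes, against 5049, and in 2 GH females 81, against 2208. At 90 min of GH in females it called more, 1058 against 829. With arrays alone, where fewer arrays set the spread, there were 13 between the sham sexes, 5 in the difference, 1 at 30 min of GH in females, 0 at 90 min in females and 0 in Hypox males over females. Of all genes, 217 were then called in the difference and 109 at 30 min in females, against 1766 and 5 in the main fit. The value table gave 2 in 2 GH males and 0 in Hypox males over females, and the mean of probes 1 at 30 min in males and 0 in Hypox males over females. The loop model gave 8 in 2 GH females, 2 at 30 min in males and 9 in Hypox males over females. It gave 3 in the difference at 30 min and 3 in males over females at 30 min. Of all genes, it called 2811 in 2 GH females and 704 at 30 min in males, against 2208 and 656 in the main fit. It called 458 of all genes in the difference at 30 min, against 2, and 913 in males over females at 30 min, against 132. No dye term gave 2 in 2 GH females, 2 in 2 GH males, 0 at 90 min in females and 0 in Hypox males over females. Slide as a block gave 1 in 2 GH females, 0 at 90 min in females, 10 in the difference, 1 at 90 min in males and 0 in Hypox males over females. Of all genes, it called 499 in 2 GH females, 175 at 90 min in females and 532 in the difference. The muscle covariate gave 0 in 2 GH females and 1 at 30 min in males. Leaving out replicate 1 or 2 gave 16 calls each between the sham sexes, 20 to 23 in Hypox males, 8 to 12 in Hypox females, 11 to 12 in the difference, 0 to 2 in 2 GH males, 0 to 1 in 2 GH females, 0 to 3 in males over females at 30 min, and 0 each at 90 min in females and in Hypox males over females. Then each comparison has 1 array, assumed to vary like the rest. With 2 arrays per comparison, small changes can be missed.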
